A study of Mus musculus with 6 samples.

Results

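The 5 genes described here, Mest, Copg2, Peg10, Sgce and Nap1l5, lie in 3 imprinted regions of mouse chromosome 6. They are 5 of the 42450 genes listed in the deposited total RNA table. They were picked by name with the difference between genotypes in these same libraries in view, and that contrast is the one in which their values are given below. Their levels and fold changes are therefore a description with no test, and the tests that follow are on other genes. All 5 were among the 18905 genes that passed the filter on low counts.

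Total RNA was sequenced from male mouse embryonic stem cells (ESC) of the line E14tg2a.4, from 3 wild-type (WT) and 3 Srrm2+/- samples. The Srrm2+/- cells are a single line, CG0630, in which a gene-trap cassette inserted in exon 1 truncates 1 allele of Srrm2, a gene for a large serine- and arginine-rich protein of nuclear speckles and the spliceosome. Both genotypes were maintained on gelatin with LIF and moved to serum-free ESGRO medium with LIF before collection. According to the study's methods the replicates were separately thawed batches, and the WT and Srrm2+/- stocks had been frozen at different passages. With 1 clone, the effects of genotype, clone and passage cannot be told apart.

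Library totals ran from 54151433 to 69933421 estimated counts, and log2 levels correlated at 0.985 to 0.989 within groups and 0.971 to 0.975 between them. Srrm2 itself was at 91.2, 98.3 and 97.7 CPM (counts scaled to a common effective library size) in WT and at 62.3, 56.2 and 59.6 CPM in Srrm2+/-. It fell by 0.69 on the log2 scale (SE 0.05, edgeR adjusted p = 2.4e-05).

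Genomic imprinting restricts transcription of a gene to the allele from one parent, through DNA methylation laid down in the germ line and kept after fertilisation by KRAB zinc-finger proteins such as ZFP57 and their cofactor TRIM28. Mest, Peg10, Sgce and Nap1l5 are transcribed from the paternal allele in mouse tissues, whereas Copg2 lies next to Mest and its imprinting varies between tissues. MEST is a membrane protein of the alpha/beta-hydrolase fold family, PEG10 is a gag- and pol-like protein derived from a retrotransposon and needed in placenta, SGCE is epsilon-sarcoglycan, COPG2 is a gamma subunit of the COPI vesicle coat, and NAP1L5 is a member of the nucleosome assembly protein family. The counts do not separate the parental alleles, and in bulk RNA more cells that express a gene cannot be told apart from more RNA per cell.

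All coordinates are on GRCm38 chromosome 6. Sgce (ENSMUSG00000004631, minus strand, 4674350 to 4747207) and Peg10 (ENSMUSG00000092035, plus strand, 4747306 to 4760517) are transcribed away from each other from starts 98 bases apart. Mest (ENSMUSG00000051855, plus strand, 30723547 to 30748465) and Copg2 (ENSMUSG00000025607, minus strand, 30747554 to 30896794) run towards each other and share 912 exon bases on opposite strands. Nap1l5 (ENSMUSG00000055430, minus strand, 58905233 to 58907076) lies within the body of Herc3, on the opposite strand, and shares 0 exon bases with it. The Peg10 and Mest regions are 26.0 Mb apart, and Copg2 and Nap1l5 are 28.0 Mb apart.

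The stretches before the inner Mest start and the Nap1l5 start are shown because imprints are carried by such start regions and both hold the hexamer TGCCGC, which ZFP57 binds when it is methylated. Each run gives the 250 bases before a RefSeq transcript start (GRCm38.p6) on the strand of the gene, with TGCCGC or its reverse complement GCGGCA in capitals.
Mest, inner start, chr6:30737800-30738049, plus strand: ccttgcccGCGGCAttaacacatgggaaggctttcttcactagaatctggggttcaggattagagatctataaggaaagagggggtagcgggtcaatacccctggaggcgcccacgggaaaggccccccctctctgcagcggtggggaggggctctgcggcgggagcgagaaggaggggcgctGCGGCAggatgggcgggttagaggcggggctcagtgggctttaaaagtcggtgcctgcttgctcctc
Nap1l5, chr6:58907127-58907376, minus strand: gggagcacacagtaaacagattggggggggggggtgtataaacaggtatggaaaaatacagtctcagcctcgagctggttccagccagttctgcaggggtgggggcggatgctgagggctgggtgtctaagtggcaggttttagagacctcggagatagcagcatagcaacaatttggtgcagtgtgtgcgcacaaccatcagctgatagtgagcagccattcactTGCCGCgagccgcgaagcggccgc
The inner Mest stretch held 2 copies of the hexamer and 14 CG dinucleotides, and the Nap1l5 stretch held 1 copy and 10 CG. The window before Copg2, chr6:30896795-30897044, held 1 copy and 19 CG. An outer Mest start, whose window is chr6:30733256-30733505, had 0 copies and 7 CG. Over 32851 mouse promoter windows of this length, 8.68% held at least 1 copy on either strand, 0.874% held at least 2, and the median number of CG was 6. These matches describe the letters and not binding or methylation, which was not measured here.

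An intron of Mest also holds the miRNA gene Mir335. Its mature products are shown for the region's annotation, with the seed, bases 2 to 8, in capitals.
miR-335-5p, chr6:30741314-30741336, plus strand: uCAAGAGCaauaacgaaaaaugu
miR-335-3p, chr6:30741354-30741375, plus strand: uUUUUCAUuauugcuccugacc
The seeds of the 2 arms differ. Mir335 had at most 3 counts in any library, so that its level in either genotype was not measurable with these libraries.

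Among the 5 genes, Mest had the widest separation between the genotypes. Its level was 2.69, 2.54 and 3.06 CPM in the WT libraries and 45.3, 44.9 and 52.5 CPM in the Srrm2+/- libraries, from 147 to 164 counts and from 3093 to 3241 counts. All 3 Srrm2+/- libraries lay far above all 3 WT libraries. The mean went from 2.76 ± 0.268 to 47.6 ± 4.31 CPM (SD, n = 3 each), a ratio of 17.2 and a log2 fold change of 4.11 (SE 0.09). That fold change ranked 25 from the top of the 18905 genes.

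Peg10 was present in WT and higher in Srrm2+/-. Its level was 32.3, 25.4 and 35.5 CPM in WT and 178, 182 and 201 CPM in Srrm2+/-. The groups did not overlap, with WT replicate 2 the lowest library and Srrm2+/- replicate 3 the highest. The mean went from 31 ± 5.16 to 187 ± 12.6 CPM (SD, n = 3), a ratio of 6.02 and a log2 fold change of 2.59 (SE 0.11, rank 150).

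Sgce, which shares the intergenic start region with Peg10, was low in WT and remained the lower of that pair. It was at 1.73, 1.76 and 2.91 CPM in WT and at 9.09, 8.86 and 7.97 CPM in Srrm2+/-. WT replicate 3 was the highest WT library, and it was still below every Srrm2+/- library. The mean went from 2.14 ± 0.673 to 8.64 ± 0.589 CPM (SD, n = 3), a ratio of 4.05 and a log2 fold change of 2.02 (SE 0.19, rank 280).

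Copg2 was abundant in both genotypes and slightly lower in Srrm2+/-. It was at 93.9, 94.3 and 90.8 CPM in WT and at 85.0, 86.7 and 84.2 CPM in Srrm2+/-. Every Srrm2+/- library was below every WT library, by a margin that was small beside the levels themselves. The mean went from 93.0 ± 1.88 to 85.3 ± 1.26 CPM (SD, n = 3), a ratio of 0.917 and a log2 fold change of -0.12 (SE 0.04). Mest and Copg2 thus lay on opposite sides of 0 although their 3′ ends overlap.

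Nap1l5 was close to the limit of detection. The WT libraries held 6, 12 and 11 counts of it (0.108, 0.208 and 0.205 CPM) and the Srrm2+/- libraries 3, 22 and 17 (0.0434, 0.319 and 0.276 CPM). The groups overlapped, with Srrm2+/- replicate 1 the lowest of the 6 libraries and Srrm2+/- replicate 2 the highest. The means were 0.174 ± 0.0568 and 0.213 ± 0.148 CPM (SD, n = 3), and the log2 fold change of 0.28 had an SE of 0.64. No difference was detectable at this depth, and its sign changed when Srrm2+/- replicate 2 was left out (-0.15).

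**Figure D1:**
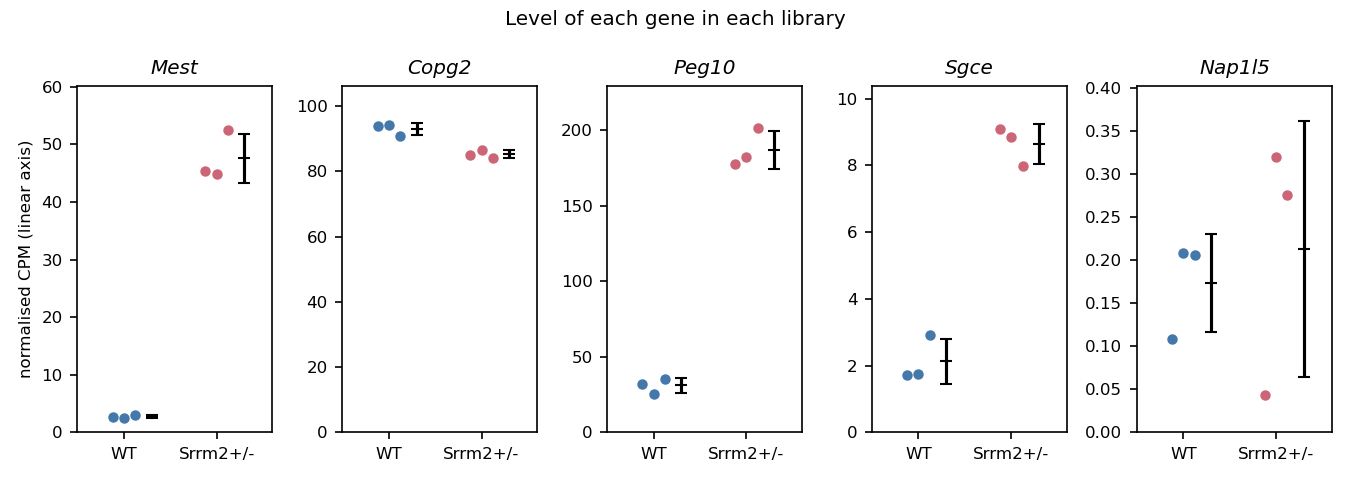
Level of each of the 5 genes in each library, in normalised CPM on linear axes that start at 0 and have their own scale per gene. Points are libraries (3 WT, 3 Srrm2+/-), and the black bars give the mean ± SD. Mest, Peg10 and Sgce have all Srrm2+/- points above the WT points, Copg2 has them below by a small margin, and Nap1l5 has overlapping points.

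Of the 5 genes, 3 had every Srrm2+/- library above every WT library, 1 (Copg2) had every one below, and 1 (Nap1l5) overlapped. Over all 18905 genes, 21.4% had every Srrm2+/- library above and 20.0% had every one below. Nothing is read from that comparison, since the genes were chosen on this contrast.

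The coefficient of variation within a genotype was smallest for Copg2 and largest for Nap1l5. It was 2.02% in WT and 1.47% in Srrm2+/- for Copg2, 9.71% and 9.07% for Mest, and 32.7% and 69.7% for Nap1l5. Peg10 varied by 16.6% in WT and 6.74% in Srrm2+/-, and Sgce by 31.5% and 6.82%.

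Levels can be compared between genes only per length, here as normalised CPM divided by the kilobases of annotated exon (RPKM). In WT the order was Copg2 (18.2 RPKM), Peg10 (4.66 RPKM), Mest (0.700 RPKM), Sgce (0.201 RPKM) and Nap1l5 (0.0942 RPKM). In Srrm2+/- it was Peg10 (28.0 RPKM), Copg2 (16.7 RPKM), Mest (12.1 RPKM), Sgce (0.814 RPKM) and Nap1l5 (0.115 RPKM). The ranges of neighbouring genes in the order did not overlap in either genotype. Peg10 and Copg2 exchanged places, and Mest moved from well below Copg2 to close under it.

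**Figure D2:**
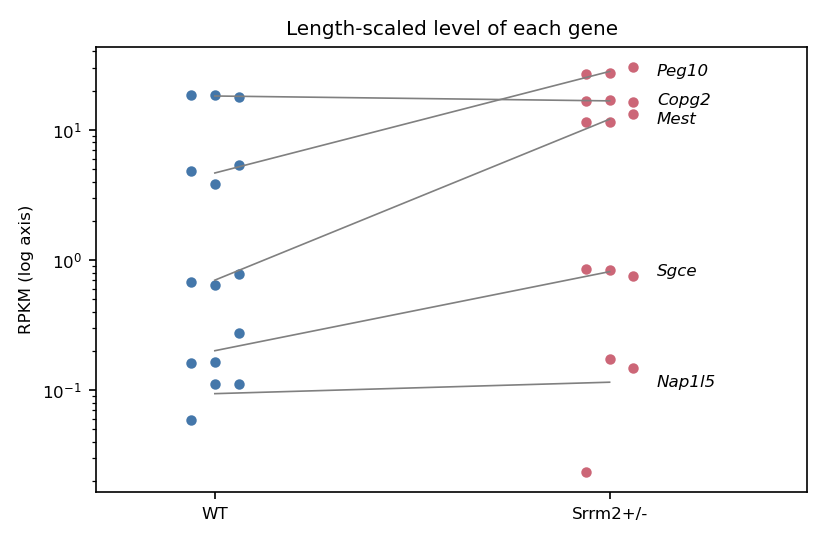
Level per length of the 5 genes in each library, in normalised RPKM on a log axis. Points are libraries, WT and Srrm2+/- side by side, and lines join the means of the genotypes. Peg10 passes Copg2 in Srrm2+/- (28.0 against 16.7 RPKM on average), and the other 3 genes keep their order.

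Within each library the ratio of Mest to Copg2 per length went from 0.0386 ± 0.00456 among WT to 0.724 ± 0.0745 among Srrm2+/- libraries (SD, n = 3). The ratio of Mest to Peg10 went from 0.152 ± 0.0153 to 0.429 ± 0.0125 (SD, n = 3), and every Srrm2+/- ratio was above every WT ratio. For the divergent pair, Peg10 over Sgce was 29.7, 22.9 and 19.4 in WT and 31.1, 32.7 and 40.2 in Srrm2+/-. All 3 Srrm2+/- ratios were above all 3 WT ratios, but only narrowly between Srrm2+/- replicate 1 and WT replicate 1. The annotated exons of Sgce span 10612 bases over 13 transcripts, against 6667 bases for Peg10, and these ratios depend on those lengths.

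The tail-to-tail overlap bears on how far the Mest and Copg2 values are independent. The 912 shared bases are 23.1% of the exon bases of Mest and 17.8% of those of Copg2. Of the 4016 distinct 31-base words in the Mest transcripts, read on either strand, 22% also occur in another gene, and 882 of them are in Copg2. The library kit was stranded, but the strand setting of the counting is not given in the sources used here. WT had 5209, 5451 and 4866 Copg2 counts beside 149, 147 and 164 Mest counts, and the part of shared reads in either level was not tested. With the counts of both genes summed, the log2 fold change was 0.47. Peg10 and Nap1l5 shared 0 words with other genes, and Sgce shared 22, or 0.204%.

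The next question was whether genes near these 5 differed too, which the choice of the 5 did not use. Within 500 kb of them 64 other genes are listed and 21 passed the filter, of which 4 rose and 1 fell (edgeR adjusted p under 0.05). That is 23.8% called, against 25.3% of all genes tested (13.6% higher and 11.7% lower). On chromosome 6 as a whole, 843 genes were tested and their median log2 fold change was 0.015.

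Of the 5 changed neighbours within 500 kb, 3 lay around Peg10 and Sgce, where 3 of 6 tested genes rose and 0 fell, with a median log2 fold change of 0.78. Among these 6, the uncalled records Gm26814 (0.69) and Gm26736 (0.45) lie within the body of Ppp1r9a, on its strand. The 6 are therefore not all separate loci, and the median rests partly on Ppp1r9a and these records. Col1a2, which encodes a chain of type I collagen and ends 133 kb away on the Sgce side, was at 0.108, 0.259 and 0.224 CPM in WT and at 2.44, 3.84 and 2.59 CPM in Srrm2+/-. It rose by 3.89 on the log2 scale (SE 0.32, adjusted p = 4.51e-05). Ppp1r9a, which encodes the actin-binding phosphatase regulator neurabin and lies 142 kb beyond Peg10, was at 34.7, 29.0 and 34.3 CPM in WT and at 59.7, 58.4 and 61.4 CPM in Srrm2+/-. It rose by 0.87 (SE 0.07, adjusted p = 3.63e-05). Pon3, a lactonase gene of the paraoxonase family 460 kb away, rose from 0.609 ± 0.170 to 1.34 ± 0.220 CPM (SD, n = 3; log2 fold change 1.14, SE 0.25, adjusted p = 0.00977).

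Casd1, the nearest tested gene to the Sgce and Peg10 pair at 31 kb and a sialic acid O-acetyltransferase gene, did not pass the test. It was at 19.2, 16.5 and 19 CPM in WT and at 19.9, 18.9 and 19.9 CPM in Srrm2+/-, and the groups overlapped (log2 fold change 0.10, SE 0.07, adjusted p = 0.327). The differences around Peg10 therefore did not decline steadily with distance. Outside the 500 kb window, the related Pon2 at 504 kb rose from 2.47 ± 0.505 to 8.02 ± 0.940 CPM (SD, n = 3; log2 fold change 1.70, SE 0.16, adjusted p = 0.00012). The calcitonin receptor gene Calcr, at 910 kb, rose by 1.76 (SE 0.22, adjusted p = 0.000581).

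Around Mest and Copg2, 11 neighbours were tested, 1 rose and 1 fell. Ube2h, which encodes a ubiquitin-conjugating enzyme, rose by 0.24 (SE 0.06, adjusted p = 0.0131), a call that was lost without Srrm2+/- replicate 3 (adjusted p = 0.0532). Tmem209, a nuclear envelope protein gene, fell from 186 ± 3.74 to 158 ± 3.98 CPM (SD, n = 3; log2 fold change -0.24, SE 0.04, adjusted p = 0.00208). Cep41, a centrosomal protein gene 29.8 kb from Mest, was at 13.2 and 13.8 CPM on average and did not pass the test (log2 fold change 0.06, SE 0.07, adjusted p = 0.627). The log2 fold changes of these 11 neighbours ran from -0.33 to 0.95, against 4.11 for Mest. Outside the 500 kb window, the sialomucin gene Podxl at 623 kb rose from 8.02 ± 0.871 to 34.4 ± 0.909 CPM (SD, n = 3; log2 fold change 2.10, SE 0.08, adjusted p = 5.93e-07). Smo, the Hedgehog pathway receptor gene at 962 kb, rose by 0.92 (SE 0.08, adjusted p = 4.58e-05). The non-coding RNA gene Rncr4, at 548 kb, fell by 0.42 (SE 0.12, adjusted p = 0.0347). Within 1000 kb, 5 of 20 tested genes were called around Mest and Copg2 (3 higher, 2 lower). Around Peg10 and Sgce 5 of 13 were called (all higher). Over the 3 regions that was 10 of 37, or 27.0%, against 25.3% of all genes tested.

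Around Nap1l5, 0 of 4 neighbours passed by edgeR's adjusted p, 2 had an unadjusted p under 0.05, and DESeq2 and limma voom each called 0. Herc3, the ubiquitin ligase gene around Nap1l5, was at 16.4, 16.3 and 16.7 CPM in WT and at 16.9, 18.4 and 19.7 CPM in Srrm2+/- (log2 fold change 0.15, SE 0.07, adjusted p = 0.128). Its groups did not overlap, and without Srrm2+/- replicate 1 it was called higher (0.21, adjusted p = 0.0423). Abcg2, a drug transporter gene, missed the threshold at 0.13 (adjusted p = 0.0605) and passed it under the stricter filter on low counts.

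**Figure D3:**
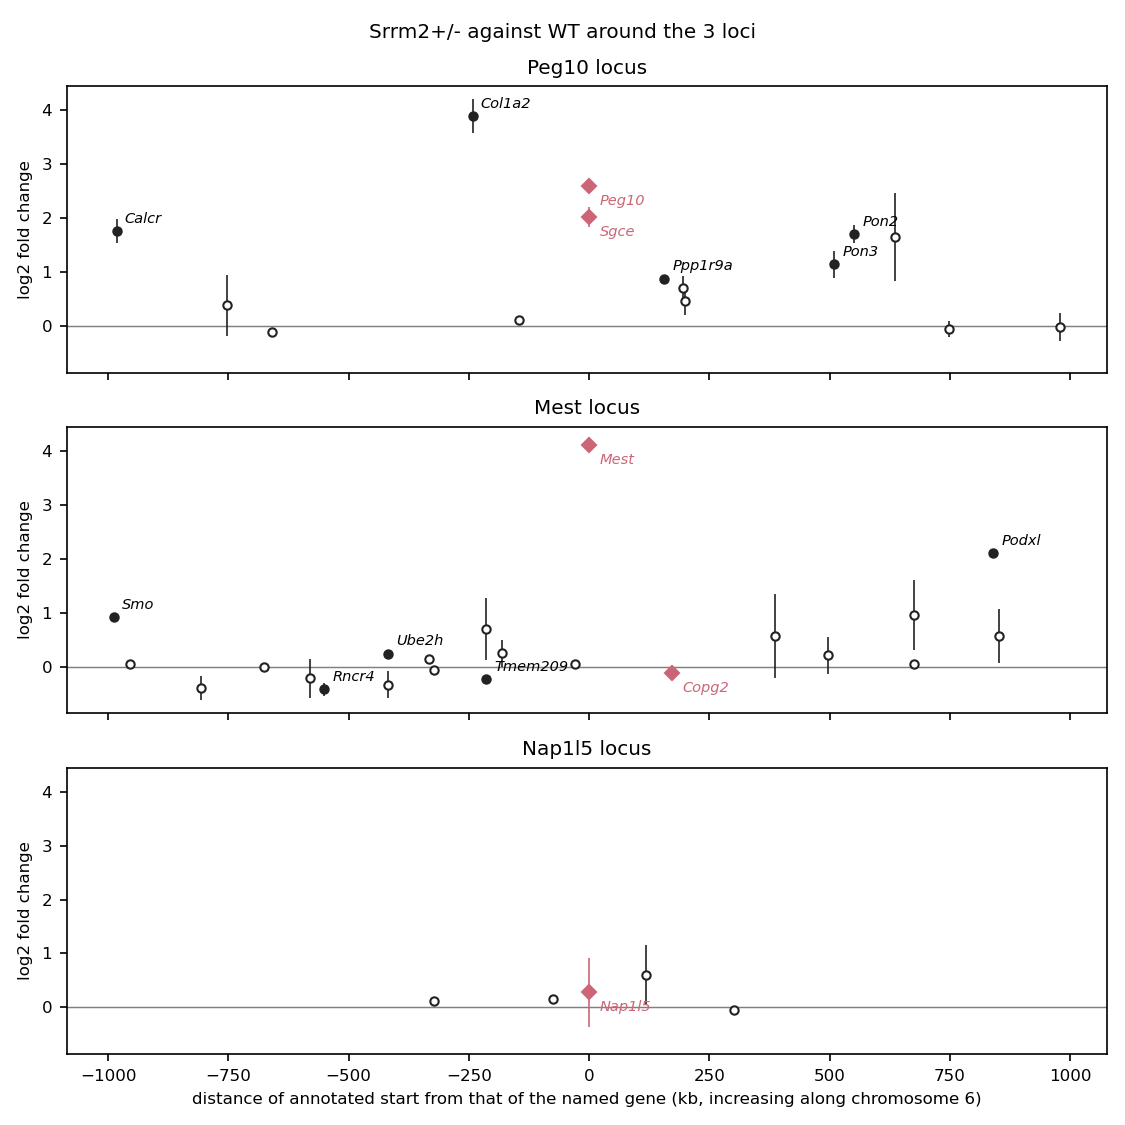
Log2 fold change of Srrm2+/- against WT for the genes around the 3 regions, by the distance in kb of their annotated starts from that of Peg10, Mest or Nap1l5. Diamonds are the 5 chosen genes, filled circles are other genes with an edgeR adjusted p under 0.05, open circles are those without, and bars are ± 1 SE. Col1a2, Ppp1r9a and Pon3 stand above 0 around Peg10, whereas the neighbours of Mest within 500 kb stay far below Mest.

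Imprinted genes on other chromosomes were examined as lists drawn up from general knowledge, though with earlier results of these data known. The paternal list held 25 tested genes reported as paternally expressed in at least some tissues, as are Mest, Peg10, Sgce and Nap1l5. Of the 25, 14 rose, 2 fell and 9 did not pass, with a median log2 fold change of 0.36 against -0.0025 over all genes tested. Of all genes tested 13.6% rose and 11.7% fell. The 25 are not all separate loci. Snurf lies within the body of Snrpn, on its strand, and Dlk1, Rtl1 and Dio3 lie near one another on chromosome 12. All of these rose. The largest rises were those of Plagl1 (0.0293 to 0.339 CPM), a zinc-finger factor gene, and of Igf2 (1.44 ± 0.298 to 13.95 ± 1.97 CPM, SD, n = 3), a fetal growth factor gene. Igf2 rose by 3.27 (SE 0.16, adjusted p = 2.9e-06), less than the 4.11 of Mest and more than the 2.59 of Peg10. Plagl1 rested on 2, 3 and 0 counts in WT and 29, 29 and 11 in Srrm2+/- (log2 fold change 3.43, SE 0.70, adjusted p = 0.00718). Magel2 (1.96), Zdbf2 (1.75) and Dio3 (1.74) rose by amounts similar in size to the difference in Sgce.

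The genes of the paternal list did not all move one way. Slc38a4, an amino acid transporter gene, fell from 227 ± 20.5 to 124 ± 4.74 CPM (SD, n = 3; log2 fold change -0.87, SE 0.06, adjusted p = 2.49e-05). Zrsr1 was called lower at -1.09 (SE 0.32, adjusted p = 0.0351), but its groups overlapped and the call was lost in 8 of 13 alternative analyses.

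The maternal list held 22 tested genes reported as maternally expressed in at least some tissues. Of the 22, 9 rose, 2 fell and 11 did not pass, with a median of 0.08, where 13.6% and 11.7% of all genes rose and fell. H19, a non-coding RNA gene, went from 0, 0 and 7 WT counts to 253, 315 and 210 Srrm2+/- counts (adjusted p = 8.16e-05). Osbpl5, a lipid transfer protein gene, rose by 2.08 (SE 0.16), Cdkn1c, a cyclin-dependent kinase inhibitor gene, by 0.78 (SE 0.10), Rian by 0.54 and Gnas by 0.45. Slc22a18 (-0.81, SE 0.14) and Phlda2 (-0.42, SE 0.08) fell. Meg3, Rian and Mirg, which all rose, follow one another on the same strand of chromosome 12, so that the 22 are not all separate loci either. Both lists thus held genes that rose and genes that fell, and the difference between the lists was not tested.

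**Figure D4:**
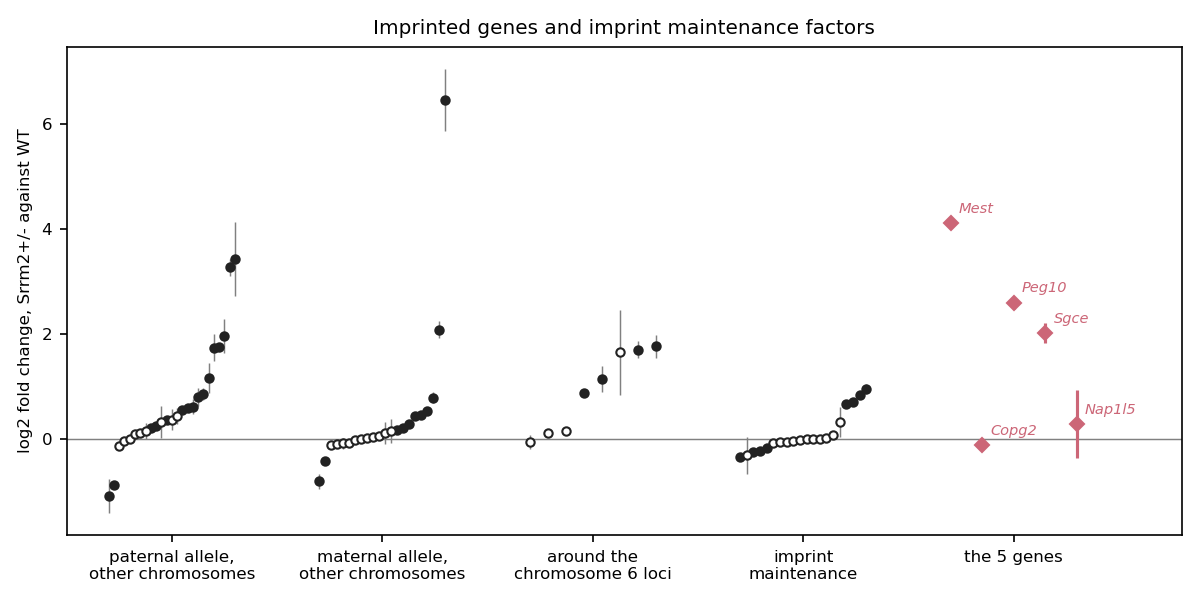
Log2 fold change of Srrm2+/- against WT (bars ± 1 SE) for tested genes of 4 lists and for the 5 chosen genes. Each circle is a gene, filled where the edgeR adjusted p was under 0.05, and diamonds mark the 5 genes, to which no test applies. In the paternal list of other chromosomes 14 of 25 rose and 2 fell, and in the maternal list 9 of 22 rose and 2 fell. Mest lies above all of them except H19.

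A list of genes reported as imprinted or lying beside the chromosome 6 regions overlaps the neighbours above, and it was not split by parental allele. Of its 8 tested genes, 4 rose (Calcr, Pon2, Ppp1r9a and Pon3), 0 fell and 4 did not pass, with a median of 1.01, against 13.6% higher among all genes. Among the latter, Asb4 went from 2, 0 and 13 WT counts to 23, 18 and 17 Srrm2+/- counts (log2 fold change 1.65, SE 0.81, adjusted p = 0.182).

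Factors that keep or set imprints formed a further list. Of 20 such genes tested, 4 rose, 4 fell and 12 did not pass, with a median of -0.02, and 25.3% of all genes were called. Zfp57, whose product binds the hexamer shown above, was at 289, 302 and 287 CPM in WT and at 237, 247 and 254 CPM in Srrm2+/-. All Srrm2+/- libraries were lower, and Zfp57 fell by 0.25 on the log2 scale (SE 0.04, adjusted p = 0.00261). Tet1, a methylcytosine dioxygenase gene, fell by 0.35 (SE 0.06, adjusted p = 0.00324) and Arid4a by 0.23 (SE 0.05). Setdb1, the histone methyltransferase gene, was called lower at -0.16 (SE 0.05, adjusted p = 0.0291), a call lost on leaving out any 1 of 5 libraries.

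The de novo methyltransferase genes moved the other way. Dnmt3b rose from 122 ± 8.25 to 237 ± 33.1 CPM (SD, n = 3; log2 fold change 0.95, SE 0.09, adjusted p = 0.00013), and Dnmt3a rose by 0.85 (SE 0.06). Their cofactor gene Dnmt3l rose by 0.66 (SE 0.08), and Dppa3, which protects maternal methylation in the zygote, by 0.71 (SE 0.08). Methylation of the 3 regions was not measured here, and the part of these factors in the levels of Mest, Peg10 and Sgce was not tested.

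The families to which the 5 genes belong were followed as well. None of the 8 other COPI subunit genes passed by edgeR, 3 had an unadjusted p under 0.05, and DESeq2 and limma voom called 0. Copg1, the paralogue of Copg2, was at 110, 118 and 117 CPM in WT and at 121, 124 and 128 CPM in Srrm2+/-. Its libraries lay on the side opposite to those of Copg2, with a log2 fold change of 0.12 (SE 0.04, adjusted p = 0.0754), and the stricter filter on low counts made it a call.

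Of the other sarcoglycan genes 3 were tested and 0 passed by edgeR, with 0 at an unadjusted p under 0.05 and 0 by DESeq2 or limma voom. Sgcd had a log2 fold change of 0.49 (SE 0.40, adjusted p = 0.422) at 0.228 and 0.320 CPM. Sgca, with 0 to 8 counts per library, did not pass the filter, so that these tests do not cover it. The 7 other NAP1 family genes tested likewise gave 0 calls by edgeR, DESeq2 and limma voom and 0 at an unadjusted p under 0.05. Nap1l1 was at 79.8 ± 7.73 and 82.7 ± 1.88 CPM (SD, n = 3), and Nap1l4 at 77.8 ± 6.47 and 79.4 ± 3.57 CPM, levels far above those of Nap1l5.

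Peg10 belongs to the genes that descend from the gag gene of retrotransposons. Of 14 others tested 5 rose, 1 fell and 8 did not pass, with a median log2 fold change of 0.38, against 13.6% higher and 11.7% lower among all genes. Rtl1, an imprinted gene of the same origin as Peg10, rose from 41.3 ± 2.87 to 62.1 ± 2.91 CPM (SD, n = 3; log2 fold change 0.59, SE 0.06, adjusted p = 0.000153). Zcchc12 rose by 3.13 (SE 0.39, adjusted p = 0.000503) from 8, 6 and 2 counts in WT. Rtl8a (1.14), the synaptic capsid gene Arc (0.77) and Zcchc3 (0.33) also rose, and Pnma2 (-0.20) was called lower, a call lost on leaving out any 1 of 4 libraries.

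Markers of other cell types moved between the genotypes beside these values. Of 8 pluripotency markers 5 fell and 1 rose (11.7% and 13.6% of all genes). Their summed level was 5058 to 5241 CPM in WT and 4426 to 4537 CPM in Srrm2+/-. The log2 fold changes of those that fell ran from -0.72 (Nanog) to -0.18 (Dppa5a). Utf1 rose by 0.52, and Pou5f1 (-0.04) and Tdgf1 (-0.07) did not pass. The call of Dppa5a, 1 of those that fell, was lost in 5 of 13 alternative analyses. Of the 5 tested mesoderm markers 2 rose (T and Kdr), with a sum of 1.98 to 2.49 CPM in WT and 5.35 to 5.93 CPM in Srrm2+/-. Of the 4 tested fibroblast markers 3, all collagen genes, rose (Col1a1, Col1a2 and Col3a1), and Thy1 did not pass. The list summed to 3.10 to 3.29 CPM in WT and 6.20 to 9.35 CPM in Srrm2+/-. Dcn and Lum had at most 4 counts in any library. Col1a2 was also counted above as a neighbour of Sgce.

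The other lists moved less or fell. Over all genes tested, 13.6% rose and 11.7% fell. Of 5 tested primitive endoderm markers 1 rose (sum 2.32 to 2.70 CPM in WT and 2.54 to 3.57 CPM in Srrm2+/-), and of 4 trophoblast markers 1 rose (2.20 to 2.40 CPM and 2.70 to 3.23 CPM), with Cdx2 at 0 counts in every WT library. The trophoblast call, Eomes (log2 fold change 0.79, adjusted p = 0.0387), was lost in 8 of 12 alternative analyses. Of 4 neural markers 2 fell (92.3 to 96.4 CPM and 65.0 to 70.3 CPM). The part of such cells in the levels of Mest, Peg10 and Sgce was not tested.

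The genes whose profile over the 6 libraries was most like that of each of the 5 were found among 12068 genes by the root mean square (RMS) difference of centred log2 CPM. For Mest these were the simple epithelial keratin genes Krt19 (RMS 0.177), Krt8 (0.213) and Krt18 (0.226). For Peg10 they were the integrin gene Itga3 (0.0855), the intermediate filament gene Nes (0.0996) and the kinase gene Nrk (0.101). For Sgce they were Platr12 (0.163), Egr1 (0.164) and Myo5b (0.178).

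Copg2 lay closest to Calu (RMS 0.00897), Ift52 (0.0126) and Mrpl47 (0.0126), all with small differences of the same sign. The nearest profiles to Nap1l5, Gm20634, Zfp219 and Ubl7, were at an RMS of 0.436 to 0.473 and thus less alike by this measure. Gm20634 nevertheless correlated with Nap1l5 at 0.998 over the 6 libraries. For Mest, Peg10 and Sgce, likeness over these 6 libraries is mostly likeness of the gap between the genotypes. None of the 5 was among the 3 nearest genes of another. Nap1l5 could not be, since it lay below the mean log2 CPM of 1 required of the genes compared.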

How the data were processed

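Total RNA of 3 WT and 3 Srrm2+/- mESC samples was sequenced in pairs with a stranded kit. The authors deposited estimated counts per gene, made with kallisto 0.46.1 against the GENCODE M24 transcriptome. The strand setting and the summing to genes are not given in the sources used here. Of 42450 gene identifiers, 42156 matched the GENCODE M21 annotation (GRCm38), which gave symbols and coordinates, and 80 tested genes had no match.

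Counts were rounded and filtered with edgeR 4.0.16 (R 4.3.3; filterByExpr, minimum count 10 and total 15), scaled by TMM and tested by glmQLFit and glmQLFTest with genotype as the only term. The test is two-sided, with Benjamini-Hochberg adjustment over all 18905 genes and calls at an adjusted p under 0.05. CPM and RPKM were computed from the same scaling, RPKM with the union of annotated exons. DESeq2 1.42.0 and limma 3.58.1 (voom), 2 other normalisations, other filters, a replicate block, the sum of overlapping genes, other windows and leaving out each library were alternatives. The scripts were tested on simulated data.

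The 5 genes and all lists were chosen with earlier results of these data known. Named genes were the 5, Srrm2, called neighbours within 500 kb, and up to 5 called genes per list and direction. Some paralogues of the 5 and the 3 most alike profiles (mean log2 CPM of 1 or more) were also named. Values or calls of Cep41, Casd1, Herc3, Abcg2, Asb4, Podxl, Smo, Rncr4, Sgca, Thy1, Pou5f1 and Tdgf1 were added for position or role after they were seen. RefSeq gave the sequences, and 3 of the 5 genes had a promoter entry. P-values measure the spread between separately thawed batches of 1 line per genotype.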

Additional observations from a re-analysis of the deposited data

How the results depend on the processing

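The log2 fold change of Mest ranged from 4.03 to 4.19 when 1 library at a time was left out and from 4.10 to 4.11 in the other fits. Copg2 gave -0.14 to -0.11, Peg10 2.47 to 2.70 and Sgce 1.89 to 2.31 when 1 library was left out. Nap1l5 gave -0.15 to 0.77, and its sign turned without Srrm2+/- replicate 2 (-0.15) and under limma voom (-0.09). With the counts of Mest and Copg2 summed, the log2 fold change was 0.47, below that of Mest and opposite in sign to that of Copg2, since most counts of the sum in WT are those of Copg2.

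The number of neighbours called was 5 within 500 kb, 3 within 250 kb and 10 within 1000 kb. It ranged from 4 to 9 when 1 library was left out, with 9 reached without Srrm2+/- replicate 1 (Herc3, Zc3hc1, 1700012C14Rik and Gm26556 gained) and 4 without Srrm2+/- replicate 3 (Ube2h lost). The COPI genes went from 0 to 1 call under the stricter filter. Counts of calls in the imprinted, imprint maintenance, sarcoglycan, NAP1 and gag-derived lists stayed within 1.5 times those given, under the alternatives that were run. Counts over the marker lists were not recomputed, but the trophoblast call, Eomes, was lost in 8 of 12 alternatives. Of 63 named or listed genes with a call to check, 11 changed it in at least 1 alternative.

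The replicate numbers did not pair the samples: deviations of same-numbered libraries correlated at -0.03 for each number and 0 libraries correlated best with their own number. The replicate block gave 4166 called genes in place of 4781, and left the log2 fold change at 4.10 for Mest, 2.60 for Peg10 and 2.05 for Sgce. Depth limits Nap1l5, at 3 to 22 counts per library. Mir335 was not measurable with these libraries. With 3 libraries per group and 1 clone, clone, passage and genotype cannot be told apart.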
